A study of Homo sapiens with 9 samples.

Results

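Depletion of ARNT was examined in A498, an established human clear cell renal cell carcinoma (ccRCC) line, by comparing 3 RNA libraries from cells with a hairpin against ARNT (shARNT) with 3 libraries from cells with a control hairpin (shControl). These are 6 of the 9 libraries in the series; the other 3 came from cells with a hairpin against BMAL1 (shBMAL1) and are used for one direct comparison. All 3 groups were made by lentiviral infection and puromycin selection, so the controls share the infection and the drug with the depleted cells. The cells grew in medium with serum and no other agent is named for these libraries. Each gene was targeted by 1 hairpin and the cells were selected pools, so the loss of ARNT and any other action of that hairpin cannot be told apart. The replicates are called biological, but no source used here says that they came from separate infections, so the p-values below measure the spread between these samples. Levels are CPM, the reads of a gene divided by a library size that was corrected for composition with TMM (trimmed mean of M values), and genes were called at an adjusted p under 0.1.

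ARNT, also known as HIF-1β, is a basic helix-loop-helix PAS protein that dimerises with the hypoxia-inducible factor α subunits and with the aryl hydrocarbon receptor. In ccRCC cells without functional VHL, HIF2α escapes degradation at normal oxygen and, together with ARNT, binds DNA at a short core of ACGTG or GCGTG. Known targets include genes of glucose uptake, angiogenesis and pH control. The account below covers all genes with enough reads to test and is ordered by what the genes do.

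ARNT mRNA (chr1:150782189-150849184 in GRCh37, minus strand) was present at 48.2, 50.6 and 52.6 CPM in the 3 shControl libraries, at 9.32, 9.13 and 9.95 CPM in the 3 shARNT libraries and at 33.0, 33.3 and 30.5 CPM in the 3 shBMAL1 libraries. No library of one group overlapped another group. In shARNT the fitted level was 5.33-fold below shControl (log2 fold change -2.41 ± 0.07 (SE), adjusted p = 1.3e-17).

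The 9 libraries held 35269870 to 36099096 counts and 18083 to 18308 genes with a count. Of 15 renal epithelial and renal carcinoma markers 13 had enough reads to test, among them the kidney transcription factor PAX8 and the keratin KRT8. Of these 13, 10 fell and 2 rose, PAX8 among the latter (median -1.19), and their summed level went from 8374 to 2337 CPM. Most of that drop was in VIM, which went from a mean of 5974 to 812 CPM and is described below with the mesenchymal markers. Only 2 of 12 endothelial, 4 of 15 leukocyte and 3 of 10 fibroblast markers were tested, and the defining markers PECAM1, PTPRC, COL1A2 and PDGFRA were not among them. The summed leukocyte list ranged from 1794 to 1913 CPM in shControl and from 138 to 150.2 CPM in shARNT, nearly all of it CD68, a lysosomal glycoprotein that many cell types make. The summed fibroblast list, nearly all of it COL1A1, went from 248 to 46.3 CPM, and the endothelial list from 3.31 to 1.28 CPM. The part of such markers in the matrix results was not tested. In bulk RNA, fewer cells of a kind and less RNA per cell cannot be told apart.

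Of 15551 genes tested, 12721 (81.8%) were called in shARNT against shControl. Of these, 6417 (41.3% of genes tested) were lower and 6304 (40.5%) were higher. At least 2-fold differences were less evenly split, with 2980 genes (19.2%) lower and 1922 (12.4%) higher. The CPM of the 3 shARNT and the 3 shControl libraries did not overlap for 12403 genes (79.8%), so a called or non-overlapping gene is the usual case here and the size of a change says more than its p-value. The largest falls and rises and the genes taken from a list by rule were picked among non-overlapping genes. Non-overlap in them was fixed by that choice. With TMM the middle gene of the whole table had a log2 fold change of -0.01. With library size alone that middle value was 0.23 and 60.5% of calls were higher in place of 49.6%, so changes are given relative to the median gene, and a list or gene whose direction turns under that scaling is named as such. The plot of programme medians sets the lists side by side.

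**Figure D1:**
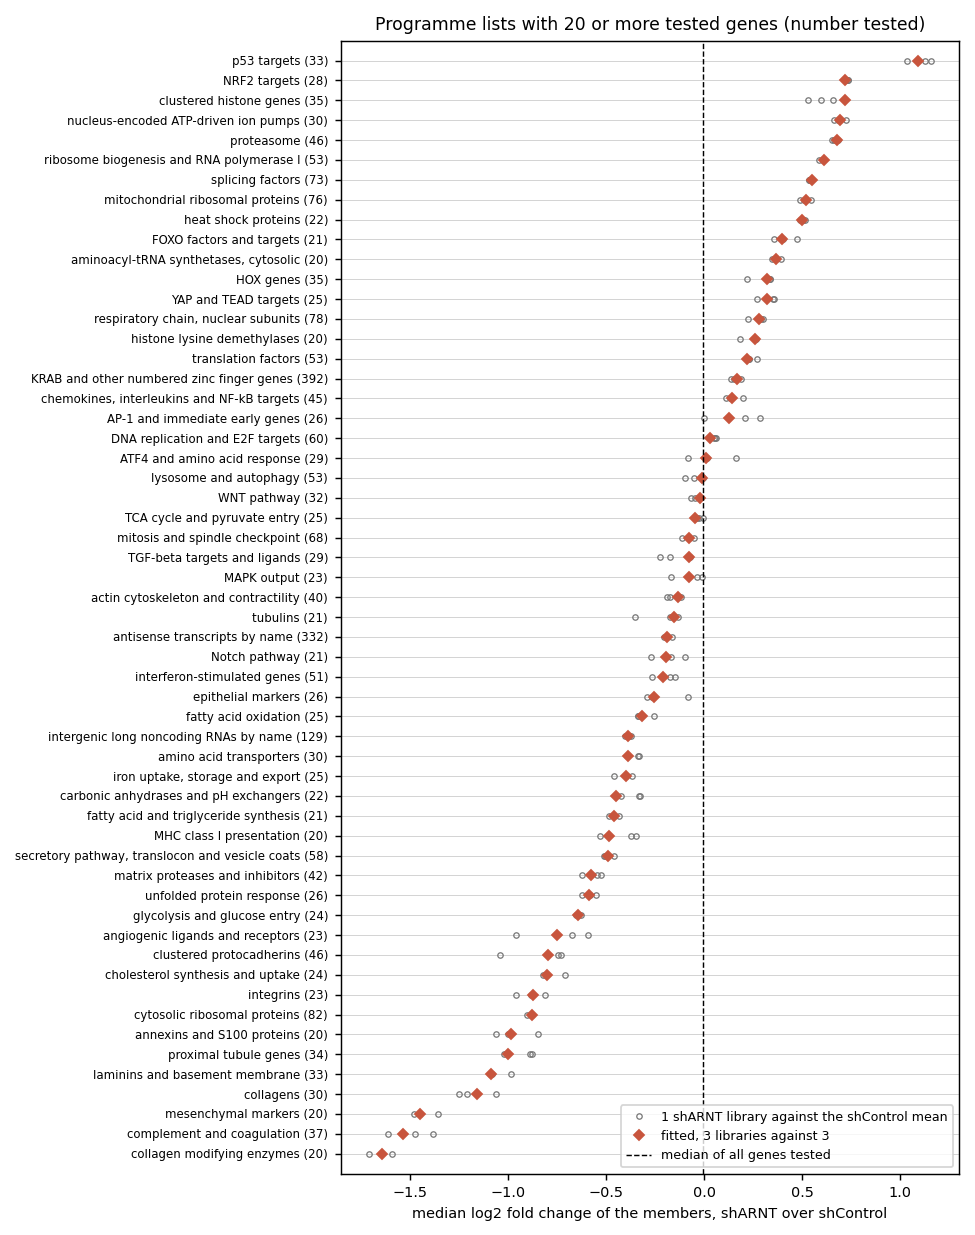
Median log2 fold change of each programme list with 20 or more tested genes (horizontal axis, shARNT over shControl), with red diamonds for the fit of 3 libraries against 3, open circles for each shARNT library against the shControl mean and a dashed line for all genes tested. Collagen modifying enzymes stand lowest at -1.64 and p53 targets highest at 1.09, and the 3 libraries lie close together beside the distance between lists.

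The 12 largest falls among well-expressed genes were mostly genes of secreted or cell surface proteins. IGFBP3 (chr7:45951844-45961473 in GRCh37, minus strand), which binds insulin-like growth factors outside the cell, was at 8248, 7989 and 8321 CPM in shControl and at 83.3, 84.6 and 84.5 CPM in shARNT, a 97.3-fold difference (log2 fold change -6.60 ± 0.04 (SE), adjusted p = 1.1e-27). The secreted glycoprotein gene AZGP1 was at 91.8, 87.9 and 90.1 CPM in shControl and 1.34, 0.708 and 0.731 CPM in shARNT (log2 fold change -6.60 ± 0.12 (SE), adjusted p = 2.4e-20). CA9, the hypoxia-induced surface carbonic anhydrase, was at 77.9, 80.2 and 71.3 and 0.833, 1.09 and 1.26 CPM (log2 fold change -6.17 ± 0.10 (SE), adjusted p = 5.3e-21). Each shARNT library of these genes was far below each shControl library. SERPINA1, the protease inhibitor α1-antitrypsin, fell from 254, 255 and 235 to 5.15, 4.05 and 4.28 CPM. The nucleotide-hydrolysing surface enzyme ENPP3 was at 107, 97.7 and 96.7 CPM in shControl and 1.54, 1.85 and 1.94 CPM in shARNT. PTPRN, a receptor-type phosphatase protein of secretory granules, stood at 832, 877 and 822 against 17.5, 17.7 and 16.6 CPM. MLXIPL encodes ChREBP, a glucose-responsive transcription factor, and fell from 52.3, 64.0 and 57.5 to 1.21, 1.11 and 1.31 CPM. The other 5 were PDZD3, SEMA5B, the complement component C6, TM4SF5 and CDH3 (P-cadherin), with log2 fold changes from -6.19 to -5.32. In shARNT PDZD3 rested on 5 to 9 reads per library, SEMA5B on 5 to 8 and C6 on 6 to 13.

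The 12 largest rises were smaller and began from low levels. Genes were picked by fold change above a minimum mean level, a choice that favours a high start for falls and a low start for rises. BDNF, a neurotrophin, was at 0.991, 0.911 and 0.545 CPM in shControl and at 13.1, 16.0 and 15.6 CPM in shARNT (log2 fold change 4.18 ± 0.18 (SE), adjusted p = 1.2e-14). The muscle-atrophy ubiquitin ligase gene FBXO32 rose from 3.72, 4.496 and 3.27 to 61.5, 69.5 and 77.0 CPM (log2 fold change 4.18 ± 0.10 (SE), adjusted p = 2.5e-18). IGFN1 rose from 9.19, 16.8 and 19.5 to 199.8, 158 and 175 CPM. The groups did not overlap in any of these, which the choice of genes required. The shControl libraries of IGFN1 spread more than 2-fold. PIDD, a death-domain protein linked to p53, rose from 17.1, 22.4 and 24.5 to 193, 162 and 165 CPM, and HDAC9, a class IIa histone deacetylase, from 2.91, 3.37 and 3.06 to 26.4, 29.3 and 29.6 CPM. MXD1, which encodes an antagonist of MYC, was at 0.751, 1.00 and 1.82 CPM in shControl and 9.90, 8.77 and 10.1 CPM in shARNT. SSTR5-AS1, TJP3, PPM1H, JAKMIP3, KRT80 and PROSER2 complete the group, with log2 fold changes from 3.01 to 4.54. The use of strand in counting is not stated, so reads of the antisense transcript SSTR5-AS1 cannot be told apart from reads of the gene it overlaps.

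**Figure D2:**
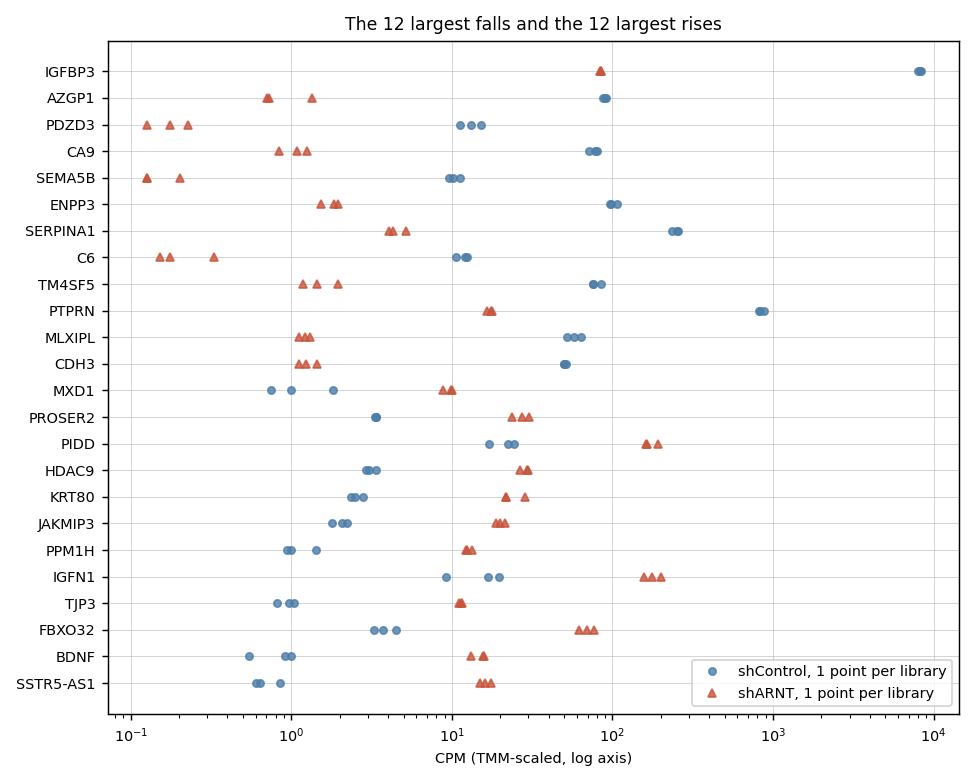
CPM in each library (log axis) for the 12 largest falls and the 12 largest rises, with circles for shControl and triangles for shARNT, 3 libraries each. The 2 groups do not overlap for any gene, which the choice of genes required, and falls such as IGFBP3 start from far higher levels than rises such as BDNF. Choice by fold change above a minimum mean level favours these starting levels.

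In unscaled shares of all counts, 25.1% of the read pool moved from genes whose share dropped to genes whose share grew. The 8 largest losses made up 3.44% of all counts. IGFBP3 dropped from 0.766 ± 0.018% to 0.00928 ± 3.6e-05% of counts (SD, n = 3). VIM, the intermediate filament of mesenchymal cells, dropped from 0.559 ± 0.0064% to 0.0896 ± 0.0028%, and TGFBI, a matrix protein induced by TGF-β, from 0.433 ± 0.022% to 0.0508 ± 0.0012%. The other losses were the mitochondrial gene COX1, the hypoxia-induced gene NDRG1, LOXL2, APOL1 and CP (ceruloplasmin). All 7 nuclear genes among the 8 fell by at least 2-fold. The 8 largest gains added 1.66% of all counts and started with AKR1C1, an aldo-keto reductase, from 0.0631 ± 0.0046% to 0.395 ± 0.01%. AKR1C2, AKR1B1, ALDH1A1, TXNRD1 and SQSTM1, genes of aldehyde and thiol metabolism and of selective autophagy, also gained and rose by 0.98 to 2.24 on the log2 scale. ACTB gained too, with a log2 fold change of 0.21 ± 0.04. RNR2, the mitochondrial 16S ribosomal RNA, gained in share from 2.46 ± 0.1% to 2.74 ± 0.21%, but its TMM-scaled level was slightly lower (log2 fold change -0.08 ± 0.04), so its direction depends on the scaling. Near-identical aldo-keto reductase genes can share reads, and AKR1C1 and AKR1C2 are uncertain as single genes.

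Among programme lists with 20 or more tested genes, collagen maturation had the lowest median. Collagen chains are hydroxylated and folded in the endoplasmic reticulum, trimmed outside the cell and crosslinked by lysyl oxidases. Of 20 tested collagen modifying enzymes, 18 fell and 1 rose, 13 fell by at least 2-fold and the median log2 fold change was -1.64, against -0.01 for all genes. Without the 4 members that are canonical HIF targets the median was -1.51. LOX, a lysyl oxidase, was at 219, 219 and 212 CPM in shControl and at 9.29, 10.8 and 10.1 CPM in shARNT (log2 fold change -4.43 ± 0.06 (SE), adjusted p = 7.8e-23). LOXL2, its most abundant relative here, was at 4124, 4084 and 4005 and 266, 287 and 304 CPM (log2 fold change -3.83 ± 0.04 (SE), adjusted p = 2.4e-23). The prolyl hydroxylase subunit P4HA3 fell from 14.4, 14.7 and 16.0 to 0.732, 0.303 and 0.655 CPM. In all of them every shARNT library was far below every shControl library. PLOD2, a lysyl hydroxylase, was at 2013, 1912 and 1779 CPM in shControl and 158, 171 and 174 CPM in shARNT, and P4HA1 at 384, 358 and 357 and 62.3, 63.0 and 58.7 CPM. SERPINH1, the collagen chaperone HSP47, was the 1 member that rose, by 0.10 ± 0.04 on the log2 scale, with libraries that overlapped. PLOD2, P4HA1 and SERPINH1 were chosen after their values were seen.

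Promoters of CA9 and of these collagen enzymes are shown because they carry the letters of the HIF core, ACGTG or its reverse complement CACGT, in capitals. They were chosen among fallen genes that hold the letters, and a match is a description and not a bound site. The sequences come from RefSeq on GRCh38.p14 and run 5′ to 3′ on the strand of the gene up to the base before its annotated start. CA9 lies at chr9:35673868-35673927 (plus strand), LOX at chr5:122078260-122078459 (minus strand), PLOD2 at chr3:146161185-146161404 (minus strand) and P4HA1 at chr10:73096867-73096976 (minus strand).
CA9: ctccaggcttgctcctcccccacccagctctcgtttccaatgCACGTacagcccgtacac
LOX: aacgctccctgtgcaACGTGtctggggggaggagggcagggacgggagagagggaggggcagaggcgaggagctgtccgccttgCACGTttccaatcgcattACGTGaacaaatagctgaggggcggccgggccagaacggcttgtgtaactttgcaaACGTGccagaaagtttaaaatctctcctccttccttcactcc
PLOD2: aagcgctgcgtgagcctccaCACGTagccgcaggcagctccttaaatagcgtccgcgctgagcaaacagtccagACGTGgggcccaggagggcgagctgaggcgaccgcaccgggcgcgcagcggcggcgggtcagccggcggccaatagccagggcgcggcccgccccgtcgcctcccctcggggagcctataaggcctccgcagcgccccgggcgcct
P4HA1: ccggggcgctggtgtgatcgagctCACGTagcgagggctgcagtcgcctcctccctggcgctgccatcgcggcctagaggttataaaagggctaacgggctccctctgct
LOX shows 4 copies, PLOD2 shows 2 and the others show 1 each. The other core, GCGTG, was left in lower case.

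Many of the collagens these enzymes act on fell as well. Of 30 tested collagens, 23 fell and 5 rose, 16 and 4 of them by at least 2-fold (median -1.16). COL5A3, a chain of type V collagen, fell from 29.2, 32.4 and 31.8 to 1.19, 1.09 and 1.11 CPM, and COL22A1 from 69.4, 71.7 and 67.9 to 4.27, 3.82 and 3.63 CPM. The shARNT libraries lay well below the shControl libraries in both. All type V and VI chains together, a split made after the values were seen, summed to 4161 CPM in shControl and 1024 CPM in shARNT. COL27A1, a fibrillar collagen of cartilage, went the other way, from 151, 168 and 178 to 346, 326 and 341 CPM, and COL11A2 also rose. Of 33 tested laminins and basement membrane or matrix glycoproteins, 24 fell, 17 of them by at least 2-fold, and 4 rose (median -1.09). ECM1 fell from 234, 245 and 233 to 10.2, 12.3 and 10.6 CPM. MATN2 fell from 49.4, 54.1 and 51.6 to 3.94, 3.51 and 3.93 CPM. LAMA1 and FBN1 rose by 0.29 and 0.53 on the log2 scale. Among laminin chains alone 10 of 12 fell, and their summed level went from 4256 to 2140.0 CPM.

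Integrins, the receptors that hold cells to the matrix, fell in 14 of 23 tested members and rose in 5 (median -0.87). These are 60.9% and 21.7%, beside 41.3% and 40.5% of all genes tested. ITGA5, the α chain of a fibronectin receptor, was at 405, 391 and 412 CPM in shControl and 94.1, 96.5 and 105 CPM in shARNT (log2 fold change -2.03 ± 0.05 (SE), adjusted p = 4.8e-19). ITGB3, the β chain of a vitronectin receptor, rose from 116, 116 and 121 to 293, 301 and 321 CPM (log2 fold change 1.37 ± 0.04 (SE), adjusted p = 1.3e-16). Both changes were far outside the spread of the libraries, and the rule for naming these genes required groups that did not overlap. Of 20 tested mesenchymal markers, 17 fell and 0 rose (median -1.45). VIM was at 6004, 5972 and 5947 CPM in shControl and 786, 807 and 843 CPM in shARNT (log2 fold change -2.88 ± 0.04 (SE), adjusted p = 5.5e-22). SNAI2, a repressor of epithelial genes, fell from 7.06, 8.20 and 9.54 to 0.177, 0.329 and 0.605 CPM. FN1 (fibronectin) and SPARC, chosen after their values were seen, fell by 1.43 and 1.09 on the log2 scale. Epithelial markers showed no mirror image, since of 26 tested genes, 13 fell and 7 rose, 9 and 4 of them by at least 2-fold. Their median log2 fold change was -0.26, and -0.02 with library size alone. The tight junction genes TJP3 and CLDN1 rose by 3.60 and 2.17, and MUC1 and JUP (plakoglobin) fell by 1.73 and 1.61.

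**Figure D3:**
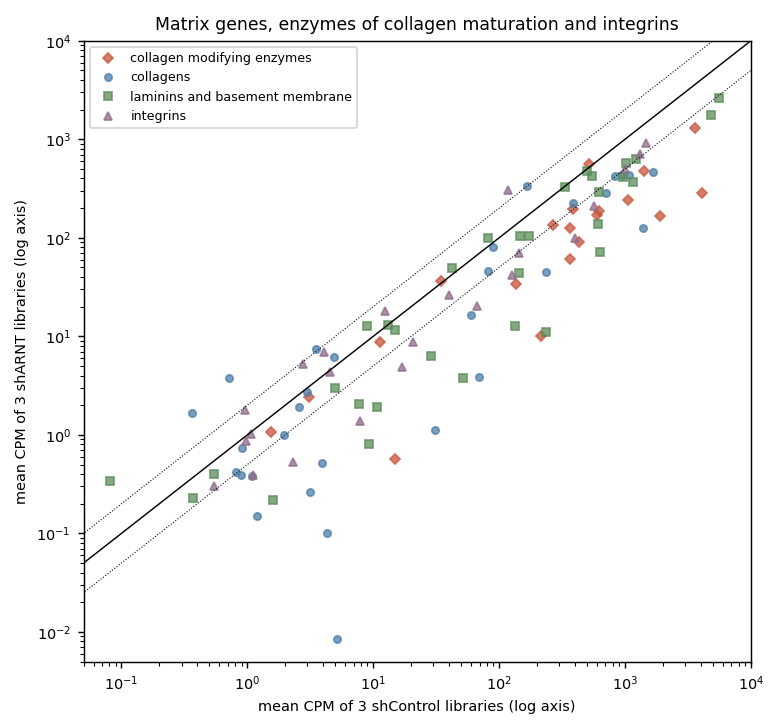
Mean CPM of the 3 shControl libraries (horizontal, log axis) against that of the 3 shARNT libraries (vertical, log axis) for collagens, collagen modifying enzymes, laminins and basement membrane genes, and integrins, with the solid line at equal levels and dotted lines at 2-fold. Most points lie below the line of equal levels, and ITGB3 and COL27A1 are among the few abundant genes at or above the upper dotted line. MFAP5 had no reads in shARNT and is not drawn.

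Matrix proteases and their inhibitors were mixed, since of 42 tested genes, 23 fell and 11 rose, 14 and 3 of them by at least 2-fold, with a median log2 fold change of -0.58. MMP28 fell from 14.3, 14.9 and 16.9 to 0.303, 0.379 and 0.479 CPM and ADAMTS14 from 15.5, 14.7 and 15.8 to 0.707, 0.43 and 0.277 CPM. MMP15, a membrane-bound metalloprotease, rose from 2.31, 3.04 and 2.97 to 15.8, 14.9 and 19.4 CPM. Annexins and S100 calcium-binding proteins fell in 15 of 20 members (median -0.98), with S100A10 falling from a mean of 519 to 44.6 CPM (log2 fold change -3.54 ± 0.05). The clustered protocadherins, adhesion proteins with many similar genes that can share reads, fell in 26 of 46 tested members and rose in 2 (median -0.80). Actin cytoskeleton genes were split between 21 that fell and 16 that rose, and their median of -0.13 turned to 0.10 with library size alone. TPM1, a tropomyosin, fell from 699.6, 647 and 649 to 78.6, 82.5 and 87.7 CPM, while MYH10, a nonmuscle myosin, rose from 9.43, 8.29 and 8.36 to 56.9, 54.5 and 61.6 CPM.

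Complement and coagulation genes gave the second lowest median among lists of 20 or more genes. Here, of 37 tested genes, 31 fell and 5 rose, 24 and 2 of them by at least 2-fold, with a median log2 fold change of -1.54. SERPING1, the C1 inhibitor, was at 34.4, 35.1 and 30.8 CPM in shControl and 0.732, 0.885 and 1.21 CPM in shARNT (log2 fold change -5.14 ± 0.13 (SE), adjusted p = 2.4e-18). CFI, a protease that cleaves complement C3b and chosen after its values were seen, fell by 2.54 on the log2 scale. The coagulation factor F5 rose from 1.65, 1.91 and 1.82 to 5.23, 5.16 and 4.56 CPM, and THBD (thrombomodulin) rose by 0.89 on the log2 scale. Angiogenic ligands and receptors fell in 14 of 23 tested members and rose in 6 (median -0.75, -0.50 without the 5 canonical HIF targets). VEGFA, the main endothelial growth factor, was at 780.4, 847 and 841 CPM in shControl and 56.1, 56.7 and 55.2 CPM in shARNT, and EDN1 (endothelin) fell by 4.08 on the log2 scale. FGF2 rose from 13.4, 13.1 and 15.0 to 40.2, 40.2 and 42.3 CPM and PDGFA by 1.15 on the log2 scale. The libraries did not overlap for any of these angiogenic genes, which the rule for naming them required.

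Genes of the secretory pathway, which carry matrix and serum proteins out of the cell, fell in 41 of 58 tested members and rose in 13 (median -0.49), with 5 falling and 3 rising by at least 2-fold. KDELR3, a receptor that returns chaperones to the endoplasmic reticulum, fell from 97.4, 99.8 and 92.5 to 17.1, 18.0 and 16.9 CPM. SEC23A, a coat protein of vesicles that leave the endoplasmic reticulum, fell from 214, 200.4 and 203 to 47.4, 51.8 and 49.9 CPM. COPE and SRP14 rose by 1.17 and 1.14 on the log2 scale. Unfolded protein response genes, the chaperones and degradation factors of the same compartment, fell in 20 of 26 and rose in 5 (median -0.59). HSP90B1 (GRP94) was at 1952, 1854 and 1897 CPM in shControl and 669, 683 and 668 CPM in shARNT, and PDIA3, a disulfide isomerase, at 291, 276 and 290.4 and 117, 118 and 113 CPM. DNAJB11 and SDF2L1 rose by 0.46 and 0.71. The ATF4 list, which reports another arm of the stress response, was mixed (12 fell, 10 rose, median 0.01, a sign that depended on which libraries were used), with TRIB3 at 122, 130.01 and 129 against 15.9, 15.6 and 19.9 CPM and GDF15 at 58.4, 52.5 and 51.3 against 412, 418 and 418 CPM.

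Stored lipid gives clear cell tumours their name, and more genes of lipid synthesis and storage fell than rose. Of 21 tested genes of fatty acid and triglyceride synthesis, 12 fell and 6 rose, 7 and 1 by at least 2-fold (median -0.46). SCD, the desaturase that makes oleate, was at 2652, 2559.9 and 2449 CPM in shControl and 135, 146 and 154 CPM in shARNT (log2 fold change -4.14 ± 0.05 (SE), adjusted p = 2.1e-23). FASN, the fatty acid synthase and chosen after its values were seen, was slightly higher (log2 fold change 0.21 ± 0.05 (SE), adjusted p = 6.9e-04). Lipid droplet and lipolysis genes fell in 12 of 17 and rose in 2 (median -0.96). HILPDA and G0S2, both inhibitors of the lipase PNPLA2, fell by 3.98 and 2.84 on the log2 scale, and the median of the list without its 2 canonical HIF targets was -0.40. Cholesterol synthesis and uptake genes fell in 18 of 24 and rose in 4 (median -0.80). SREBF2, the transcription factor of this pathway, fell from 373, 369.6 and 363 to 87.5, 90.6 and 90.5 CPM and MSMO1 from 99.4, 89.9 and 93.5 to 24.7, 23.7 and 22.7 CPM. Fatty acid oxidation was mixed, with 15 falls and 9 rises (median -0.32, and -0.08 with library size alone), including CPT1A at 0.90 and ACADS at -1.74 on the log2 scale. In glycolysis and glucose entry 16 of 24 fell and 5 rose (median -0.64). Of these 24 genes, 20 are canonical HIF targets, and the median without them was -0.88. LDHA was at 1613, 1560.4 and 1654 CPM in shControl and 229, 228 and 231 CPM in shARNT. PFKFB3, a regulator of glycolytic flux, rose from 50.8, 51.9 and 51.4 to 109, 110.2 and 106 CPM.

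Kidney identity genes did not move as one. Among 19 tested kidney lineage transcription factors, 11 fell and 6 rose (median -0.31, and -0.07 with library size alone). HNF4A (chr20:42984339-43061485 in GRCh37, plus strand), which drives proximal tubule genes, was at 302, 307 and 302 CPM in shControl and 19.3, 17.2 and 14.7 CPM in shARNT (log2 fold change -4.15 ± 0.06 (SE), adjusted p = 1.6e-21). PAX8 rose from 33.8, 37.2 and 37.0 to 95.7, 98.6 and 107 CPM (log2 fold change 1.48 ± 0.06 (SE), adjusted p = 2.0e-14). Among 34 tested proximal tubule genes 22 fell, 17 by at least 2-fold, and 7 rose, 6 by at least 2-fold (median -1.002). The summed level of this list was 5557 CPM in shControl and 5524 CPM in shARNT. Carbonic anhydrases and pH exchangers also split, with 12 falls and 6 rises among 22 (median -0.45, -0.18 without 2 canonical HIF targets). CA12 fell from 1211, 1172 and 1173 to 132, 132 and 130.5 CPM. CA2, the cytosolic enzyme, rose from 72.6, 76.0 and 72.2 to 239.8, 240.3 and 246 CPM. Iron genes fell in 18 of 25 (72%) and rose in 7 (28%), with a median of -0.40. CP, the ferroxidase ceruloplasmin, fell from 3313, 3144 and 3105 to 334, 361 and 332 CPM, while ISCU, a scaffold for iron-sulfur clusters, rose from 45.1, 43.3 and 43.4 to 141, 143 and 140.0 CPM. Of 30 amino acid transporters 14 fell (46.7%) and 8 rose (26.7%), with a median of -0.39. Over all genes tested 41.3% fell and 40.5% rose. SLC1A1, a glutamate carrier, fell by 2.44 and SLC43A2 rose by 2.35 on the log2 scale.

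Genes of the cytosolic and of the mitochondrial ribosome moved in opposite directions. Of 82 tested cytosolic ribosomal protein genes 79 fell, 33 by at least 2-fold, and 1 rose (median -0.88, and -0.64 with library size alone). Their summed level went from 40003 CPM in shControl to 20272 CPM in shARNT. RPS12 was at 106, 109 and 108 CPM in shControl and 30.5, 30.3 and 31.7 CPM in shARNT (log2 fold change -1.80 ± 0.05 (SE), adjusted p = 4.6e-17). RPS4X was at 2599, 2576 and 2604 and 747, 771 and 740.2 CPM (log2 fold change -1.78 ± 0.03 (SE), adjusted p = 4.8e-20). The large and the small subunit fell alike, 47 of 48 and 32 of 34 genes with medians of -0.91 and -0.87. RPS28 rose from 0.653 to 1.13 CPM, with libraries that overlapped and a level far below that of the other genes of the cytosolic ribosome named here. Ribosomal protein genes have many processed pseudogenes, and how reads with several alignments were counted is not stated, so the level of each one is uncertain. Of 76 mitochondrial ribosomal protein genes 56 rose and 11 fell (median 0.52). MRPS9 was at 12.3, 13.7 and 12.4 CPM in shControl and 48.0, 46.8 and 44.7 CPM in shARNT (log2 fold change 1.86 ± 0.07 (SE), adjusted p = 7.2e-16), and MRPS15 at 27.4, 30.2 and 27.0 and 93.8, 98.2 and 94.6 CPM. MRPS6 fell from 90.9, 90.8 and 98.9 to 44.1, 45.8 and 39.2 CPM.

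Factors that build ribosomes rose, in contrast to the ribosomal proteins themselves. Of 53 genes of ribosome biogenesis and RNA polymerase I, 44 rose, 13 by at least 2-fold, and 5 fell (median 0.61). NOC4L rose from a mean of 15.1 to 44.1 CPM (log2 fold change 1.54 ± 0.07) and UTP3 from 23.9, 27.5 and 24.6 to 74.0, 71.1 and 72.1 CPM. MYC, the transcription factor on the same list, fell from 94.5, 91.6 and 93.6 to 45.3, 46.5 and 46.2 CPM. Translation factors were divided by kind, with 19 falls and 30 rises among 53 (median 0.22). All 4 genes of the ubiquitous eEF1 elongation complex fell (median -0.998), with EEF1A1 at 2769, 2736 and 2677 CPM in shControl and 1327, 1357 and 1374 CPM in shARNT, whereas 11 of 14 subunits of the initiation factor eIF3 rose (median 0.27). EEF1A2, the muscle and neuron form of EEF1A1, rose from 297, 300.0 and 296 to 1013, 1059.8 and 1073 CPM. PABPC4, a poly(A)-binding protein, fell from 376, 377 and 393 to 142, 143 and 146 CPM, and EIF2D from 126, 121 and 125 to 30.3, 29.3 and 32.4 CPM. Of 18 snoRNA host genes 13 fell and 3 rose (median -0.66), with SNHG8 at 68.5, 65.9 and 65.8 against 21.7, 21.9 and 21.6 CPM. The eEF1 and eIF3 groups and EEF1A1 were chosen after their values were seen.

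**Figure D4:**
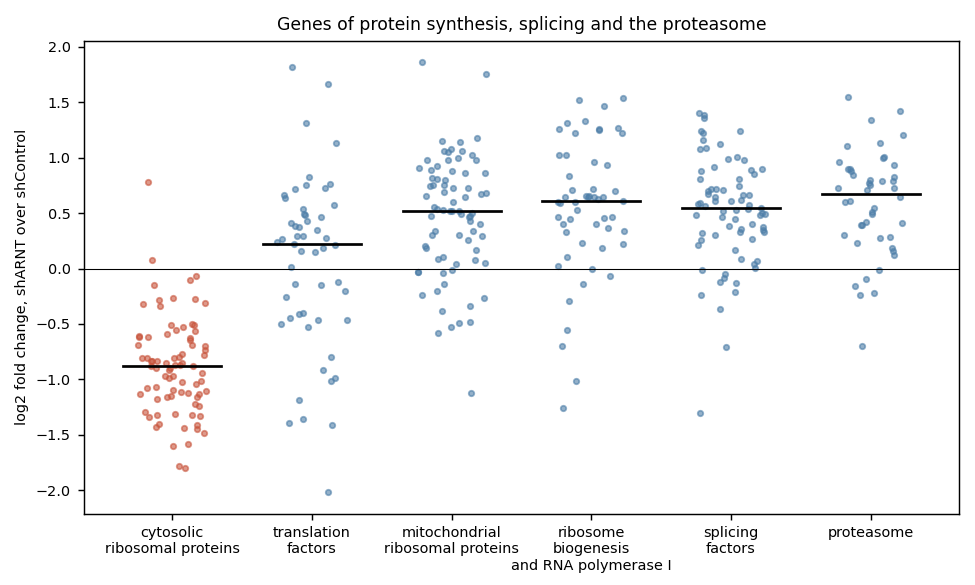
Log2 fold change of each tested gene (vertical axis, shARNT over shControl) in 6 programme lists, with a black bar at the median of each list and horizontal scatter for visibility only. Nearly all cytosolic ribosomal protein genes lie below 0 (median -0.88), while the mitochondrial ribosome, ribosome biogenesis, splicing and proteasome lists centre between 0.52 and 0.67.

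Start sites of several genes are shown because messages of the cytosolic ribosome are known for a pyrimidine tract at their first base, which links their translation to mTOR signalling. A tract was counted where a C followed by 6 pyrimidines stood within 10 bases of the annotated start. Such a run was found in 50 of 64 cytosolic ribosomal protein genes with a RefSeq promoter, in 7 of 67 mitochondrial ones and in 1615 of all 11550 tested genes with a promoter. The windows below give the 12 bases before the start in lower case and the first 12 transcribed bases in capitals, from RefSeq on GRCh38.p14.
RPS12: tgcggatgaggcCTCTTTCCCTGC
RPLP0: cgggcgcgaggcCCTTCTCTCGCC
RPL31: atccttcgcgctCTTCCTTTCCAA
EEF1A1: gccgtgaacgttCTTTTTCGCAAC
ZFAS1: aagccattcgttCTTTCGCGTCTG
MRPS9: cctcacccctccGGTCCTGGAGCT
MRPS15: ggtattgcaactGCCTCGATTGGT
UQCRFS1: aaggtcgtccctGTGACCGGCTTG
The positions are chr6:132814557-132814580 (plus strand) for RPS12, chr12:120201100-120201123 (minus strand) for RPLP0, chr2:101002277-101002300 (plus strand) for RPL31, chr6:73521021-73521044 (minus strand) for EEF1A1, chr20:49278630-49278653 (plus strand) for the snoRNA host ZFAS1, chr2:105038057-105038080 (plus strand) for MRPS9, chr1:36464373-36464396 (minus strand) for MRPS15 and chr19:29213140-29213163 (minus strand) for UQCRFS1, a subunit of respiratory complex III. The first 5 genes fell, by 1.01 to 1.80 on the log2 scale, and the last 3 rose. In the letters shown, the first transcribed base was a C followed by pyrimidines in the first 5 genes and a G in the last 3. The rule, which also takes runs in the bases before the start, did not divide these 8 genes in that way. By the rule a tract was present in RPS12, RPLP0, RPL31 and EEF1A1 and absent from ZFAS1, MRPS15 and UQCRFS1. ZFAS1 fell, but its run of pyrimidines is too short for the rule. MRPS9, which rose, held a tract only in the bases before its annotated start, which are not transcribed from that start. The 1565 genes with a tract outside the cytosolic ribosomal protein genes had a median log2 fold change of -0.09. The 9935 genes without a tract, which include the cytosolic ribosomal protein genes that lack one, had a median of 0.04. This scan and these genes were chosen after the values were seen.

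The respiratory chain is built from nuclear and mitochondrial genes, described separately here. Of 78 tested nuclear subunits 51 rose and 16 fell (median 0.28), 7 and 2 by at least 2-fold. Complex I rose in 23 of 37 genes and complex III in 10 of 11. COX7C was at 11.8, 12.03 and 11.6 CPM in shControl and 48.0, 52.5 and 48.7 CPM in shARNT, and NDUFS5 rose from 79.0, 72.5 and 73.3 to 171, 176 and 167 CPM. ATP5G2, a subunit of ATP synthase, fell from 155, 159 and 152 to 75.9, 71.7 and 62.6 CPM. Of 13 mitochondrially encoded subunits 9 fell and 1 rose (median -0.37, and -0.13 with library size alone), none of them by 2-fold. The size of this fall therefore depends on the scaling. COX1 was at 19246, 24415 and 22940.2 CPM in shControl and 14564, 14197 and 12335 CPM in shARNT (log2 fold change -0.70 ± 0.06 (SE), adjusted p = 4.4e-09). COX2 was at 8789, 9537 and 10024 and 6794, 6360.2 and 5762 CPM. The groups did not overlap for either gene, which the rule for naming list members required, although the shControl libraries of COX1 spread widely. Enzymes of the TCA cycle and pyruvate entry split evenly, 11 down and 11 up, and their median of -0.05 turned to 0.19 with library size alone. MPC2, a subunit of the mitochondrial pyruvate carrier, fell by 1.18 and IDH3B rose by 1.94 on the log2 scale.

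Ion pumps separated by family, a split made after the values were seen. The V-ATPase, which acidifies lysosomes and other vesicles, rose in 16 of 18 tested subunits, 10 of them by at least 2-fold, and fell in 2 (median 1.04). Its summed level went from 1099 to 2257 CPM. ATP6V1A, the catalytic subunit, was at 55.2, 57.4 and 49.6 CPM in shControl and 174, 180.0 and 188 CPM in shARNT (log2 fold change 1.74 ± 0.05 (SE), adjusted p = 6.9e-17). Subunits and regulators of the sodium-potassium pump fell in 5 of 6, and their summed level went from 2937 to 897 CPM. ATP1B1, the main β subunit, was at 1023, 973 and 952 CPM in shControl and 118, 121 and 124 CPM in shARNT (log2 fold change -3.02 ± 0.04 (SE), adjusted p = 8.6e-23). The lysosome and autophagy list holds some genes of the V-ATPase. Without them, a split also made after the values were seen, 23 of its 47 genes fell and 15 rose, 14 and 3 by at least 2-fold, with a median of -0.08 that is smaller in size than the shift of the middle gene with library size alone. The median of the whole list was -0.01 and became 0.22 with library size alone. The cathepsin gene CTSB fell from 1082, 1061 and 1062 to 265, 275 and 269 CPM and WIPI1, a factor of autophagosome formation, from 92.9, 88.3 and 90.7 to 22.4, 19.4 and 21.0 CPM. SQSTM1 (p62), the autophagy receptor, rose from 456, 469.7 and 498.3 to 1969.9, 1962 and 2070.2 CPM.

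Proteasome, splicing and heat shock genes rose broadly and by modest amounts. Of 46 proteasome genes 39 rose and 5 fell (median 0.67), 8 and 0 by at least 2-fold. The alpha and beta subunits of the core rose in 16 of 17. Genes named PSMC or PSMD, mostly of the regulatory cap but with the assembly chaperone PSMD5 among them, rose in 14 of 20. PSMB6, a catalytic subunit, was at 121, 117 and 117 CPM in shControl and 316, 318 and 318 CPM in shARNT (log2 fold change 1.42 ± 0.04 (SE), adjusted p = 5.3e-17). PSMB9, its interferon-inducible counterpart, rose by 1.55 on the log2 scale, and the assembly chaperone PSMD5 fell by 0.70. Splicing factors rose in 60 of 73 and fell in 7 (median 0.55), with SRSF4 at 40.7, 39.2 and 37.7 against 105, 102 and 104 CPM. HNRNPA1, a gene with many pseudogenes, fell from 76.0, 78.9 and 76.6 to 31.9, 30.0 and 31.8 CPM. Cytosolic and mitochondrial heat shock proteins rose in 20 of 22 (median 0.50). HSPH1 was at 140.2, 134 and 148 CPM in shControl and 385, 380.0 and 393 CPM in shARNT, and HSPA4 at 139, 134 and 135 and 361, 378 and 364 CPM. The co-chaperone DNAJB1 fell from a mean of 194 to 125 CPM (log2 fold change -0.63 ± 0.04). Cytosolic aminoacyl-tRNA synthetases rose in 13 of 20 (median 0.37), WARS by 1.64 on the log2 scale.

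Among lists with 20 or more tested genes, the highest median belonged to targets of p53, the transcription factor that answers DNA damage and other stress. Of 33 tested p53 targets 27 rose, 18 by at least 2-fold, and 6 fell (median 1.09). C12orf5, which encodes TIGAR, an inhibitor of glycolysis, was at 8.80, 7.14 and 7.27 CPM in shControl and 51.7, 52.6 and 48.8 CPM in shARNT (log2 fold change 2.72 ± 0.08 (SE), adjusted p = 5.7e-17). BTG2, an antiproliferative gene, rose from 4.36, 4.89 and 4.72 to 29.5, 27.3 and 25.7 CPM. BAX, which promotes apoptosis, was at 66.1, 64.5 and 71.4 against 237, 232 and 237 CPM. CDKN1A (p21), the cell cycle inhibitor, rose from 82.2, 80.6 and 83.6 to 199, 207 and 209 CPM and MDM2, the ligase that degrades p53, from 45.5, 42.7 and 39.3 to 110.5, 111 and 108 CPM. Every shARNT library of these genes was above every shControl library, which the rule for naming required of C12orf5 and BTG2. TP53I3, EDA2R and DDB2, also p53 targets, fell by 0.79, 0.73 and 0.59 on the log2 scale. BAX, CDKN1A, MDM2 and DDB2 were chosen after their values were seen.

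NRF2 is the transcription factor of the response to oxidants and electrophiles. Of 28 tested NRF2 targets 21 rose, 9 by at least 2-fold, and 7 fell, 0 by that much (median 0.72). AKR1C1 was at 643, 646 and 734 CPM in shControl and 3456, 3599 and 3677 CPM in shARNT (log2 fold change 2.41 ± 0.06 (SE), adjusted p = 7.9e-19). GCLM, a subunit of the enzyme that starts glutathione synthesis, rose from 37.4, 36.4 and 39.4 to 143, 148 and 149 CPM. PGD, an enzyme of the pentose phosphate pathway, rose from 359, 350.0 and 373 to 1139, 1156 and 1151 CPM. The fallen members included the ferritin light chain FTL (-0.62 on the log2 scale) and AKR1B10, at 3119, 3061 and 3367 CPM in shControl and 1971, 1979 and 2017 CPM in shARNT. HMOX1, a common reporter of this pathway, fell slightly, from 79.0, 81.6 and 78.8 to 62.4, 63.6 and 69.6 CPM. GCLM, PGD and HMOX1 were chosen after their values were seen. FOXO factors and targets were divided, 12 up and 8 down among 21 (median 0.39), with FBXO32 at one end and ERBB3, a receptor of neuregulins, at the other, falling from a mean of 42.2 to 5.76 CPM (log2 fold change -2.87 ± 0.09). Metallothioneins could be tested for only 2 of 10 genes, and both fell, MT2A from 19.3, 19.0 and 22.0 to 6.87, 6.95 and 6.88 CPM.

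**Figure D5:**
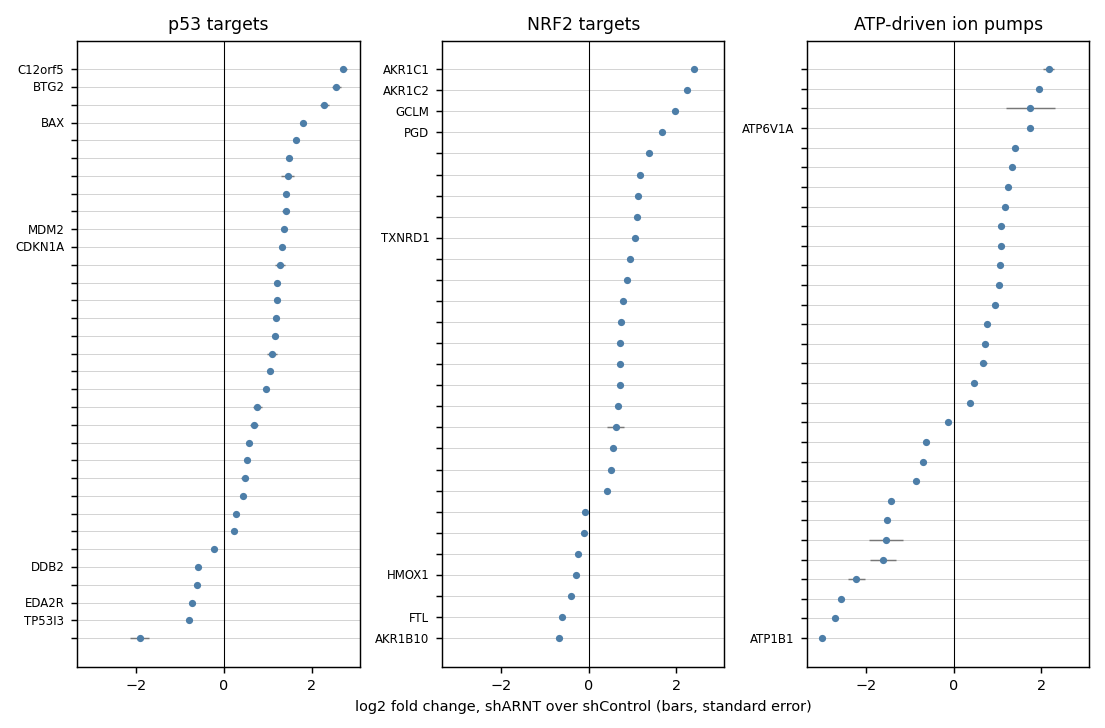
Log2 fold change (horizontal axis, shARNT over shControl) of every tested p53 target, NRF2 target and ATP-driven ion pump gene, with bars for the standard error of the fit over 3 libraries against 3. Each row is 1 gene, and names are given for genes described in the text. In the pump panel ATP6V1A stands on the right at 1.74 and ATP1B1 at the far left at -3.02.

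Cell cycle programmes showed no common direction. DNA replication and E2F target genes rose in 24 and fell in 19 of 60 (median 0.03), and mitosis genes rose in 20 and fell in 29 of 68 (median -0.08, which became 0.16 with library size alone). Single members still moved by large amounts. CDC25B, a phosphatase that starts mitosis, was at 55.96, 59.5 and 67.5 CPM in shControl and 258, 257 and 259 CPM in shARNT (log2 fold change 2.08 ± 0.05 (SE), adjusted p = 5.2e-18). CDCA2 fell by 2.57 and UBE2C by 1.42 on the log2 scale, and the maintenance methyltransferase DNMT1 rose by 1.30. Among D-type cyclins, their kinases and the inhibitors of these kinases, 4 fell and 7 rose. CCND1, the D-type cyclin with the most reads, was at 349, 338 and 331 CPM in shControl and 154, 142 and 168 CPM in shARNT. CDKN1B (p27) and CDK6 rose by 1.38 and 1.97. Clustered histone genes rose in 20 of 35 and fell in 5 (median 0.72), but at low levels that sum to 317 CPM in shControl and 368 CPM in shARNT. Their messages mostly lack a poly(A) tail, and near-identical copies can share reads, so these values are uncertain.

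Of 35 tested HOX genes, which set position along the body axis, 18 rose and 7 fell (median 0.32). By cluster, a split made after the values were seen, all 8 tested HOXB genes rose (median 0.99) and HOXD genes fell in 3 and rose in 1 of 8. HOXA9 was at 11.7, 12.5 and 14.5 CPM in shControl and 55.5, 54.4 and 55.1 CPM in shARNT. Numbered zinc finger genes, a family of mostly KRAB repressors, rose in 173 and fell in 121 of 392 (median 0.17). These are 44.1% higher and 30.9% lower, beside 40.5% and 41.3% of all genes tested. At least 2-fold changes were rarer than over all genes, 9.9% higher and 11.2% lower beside 12.4% and 19.2%. The median is smaller than the shift of 0.24 of the middle gene with library size alone. ZNF395 fell from 165, 159 and 159 to 26.7, 27.9 and 29.1 CPM and ZNF337 rose from 13.4, 14.6 and 16.4 to 83.6, 74.8 and 72.6 CPM. Histone lysine demethylases, oxygen-dependent enzymes, rose in 11 (55%) and fell in 5 (25%) of 20, beside the same 40.5% and 41.3% of all genes tested. By at least 2-fold only 1 rose and 1 fell, and the median of 0.26 is close in size to that shift of 0.24. Intergenic long noncoding RNAs fell more often than they rose, 70 against 28 of 129 tested (median -0.39), 44 against 10 by at least 2-fold. LINC00087 fell from 9.58, 10.1 and 8.78 to 0.454, 0.683 and 0.731 CPM. Across all 573 genes annotated as long noncoding RNA the median was -0.31, and 28.1% were at least 2-fold lower, beside 18.3% of 13445 protein-coding genes. In the bin of all tested genes with the fewest reads, out of 5 bins, the median was -0.29 and 30.6% were at least 2-fold lower. The part of expression level in the values for long noncoding RNAs was not tested.

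Signalling lists were mostly mixed, with large changes in single ligands and receptors. The insulin-like growth factor axis fell in 10 of 12 tested members and rose in 1 (median -0.52). Beside IGFBP3, the adaptor IRS2 fell from 261, 271 and 274 to 61.8, 66.0 and 73.8 CPM, while the receptor IGF1R rose by 0.69 on the log2 scale. EGF family ligands and ERBB receptors were even, 6 down and 6 up among 14. NRG1, a ligand of ERBB3, rose from 11.3, 10.8 and 9.69 to 44.7, 43.2 and 50.8 CPM, and ERRFI1, a feedback inhibitor of EGFR, fell by 3.14 on the log2 scale. Of 29 TGF-β ligands and targets 14 fell and 11 rose. TGFB1 was at 698, 713 and 742 CPM in shControl and 54.9, 56.2 and 56.6 CPM in shARNT (log2 fold change -3.68 ± 0.04 (SE), adjusted p = 9.0e-24), and TGFB2 rose by 1.38. YAP and TEAD targets rose in 14 and fell in 11 of 25 (median 0.32). AMOTL2 and NUAK2 rose by 2.21 and 2.85, and THBS1, a matrix glycoprotein, fell from 641, 605 and 643 to 64.7, 71.5 and 79.4 CPM. MAPK output genes were even as well, 11 down and 10 up, with EPHA2 at 58.8, 61.2 and 56.3 against 256, 272 and 272 CPM. Medians of the TGF-β, MAPK, WNT and Notch lists lay between -0.19 and -0.02 and turned positive with library size alone.

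The aryl hydrocarbon receptor, another partner of ARNT, could be followed through 10 of 13 listed genes, of which 4 fell and 5 rose. CYP1A1, its best known target, had too few reads to test. AHRR, the repressor of the receptor, rose from 2.61, 1.97 and 1.88 to 10.0, 10.3 and 9.95 CPM. SLC7A5, an amino acid transporter, fell from 350.5, 383 and 344 to 106, 114 and 129 CPM. Interferon-stimulated genes fell in 26 and rose in 21 of 51 (median -0.21, which became 0.03 with library size alone). These are 51.0% and 41.2%, beside 41.3% and 40.5% of all genes tested. BST2 (tetherin) fell from 148, 147 and 149.6 to 24.7, 24.8 and 23.8 CPM. Chemokines, interleukins and NF-κB targets split into 20 falls and 22 rises, with PTGS2 at -4.12 and BIRC3 at 2.08 on the log2 scale. In MHC class I presentation 13 of 20 fell (median -0.49), among them 5 of 6 HLA heavy chain genes, which share reads. The loading factor TAPBP fell by 1.51 and the transactivator NLRC5 rose by 1.45.

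The shBMAL1 libraries allow shARNT to be set against another depletion without the shControl libraries. In that contrast 12630 genes (81.2%) were called. Each of the 12 largest falls was lower in shARNT than in shBMAL1 and each of the 12 largest rises was higher. These 24 genes were chosen as extreme in the same shARNT libraries, so that choice favours this direction and the count is a description. IGFBP3 was at 4565, 4791 and 4792 CPM in shBMAL1 (shARNT over shBMAL1, log2 fold change -5.81 ± 0.04 (SE), adjusted p = 6.5e-27). BDNF, at 12.02, 8.91 and 11.1 CPM in shBMAL1, differed least of the 24 (0.48 ± 0.12 (SE), adjusted p = 1.3e-03). Several named genes stood on opposite sides of shControl in the depletions, chosen here after their values were seen. ITGA5 was at 998, 959.9 and 1042 CPM in shBMAL1, above all shControl libraries, and below them in shARNT (-3.34 ± 0.05 (SE), adjusted p = 4.8e-22). ATP6V1A was at 31.9, 30.6 and 29.8 CPM in shBMAL1, below shControl, and above it in shARNT (2.55 ± 0.06 (SE), adjusted p = 3.3e-19). MMP15, CDC25B and PIDD were likewise lower in shBMAL1 and higher in shARNT, and differed by 4.26, 2.96 and 3.36 on the log2 scale between the depletions. LDHA, at 2189, 2289.5 and 2316 CPM in shBMAL1, was higher than in shControl there and lower in shARNT (-3.30 ± 0.04 (SE), adjusted p = 1.5e-23). EEF1A1 was lower still in shBMAL1, at 840.4, 904 and 848 CPM. Both depletions are compared with the same shControl libraries, so likeness between their changes is not read here.

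Promoters of genes at least 2-fold lower did not hold the letters of the HIF core more often than promoters of all genes tested. In the 300 bases around the annotated start (250 before and 50 after), ACGTG on either strand was present in 26.4% of the 11550 tested genes with a RefSeq promoter, in 21.8% of 2061 genes at least 2-fold lower and in 27.4% of 1375 genes at least 2-fold higher. GCGTG was present in 49.8%, 42.5% and 51.6% of the same sets. Canonical HIF targets held ACGTG in 26 of 49 promoters (53.1%), which is the set the core is known from. Collagen modifying enzymes held it in 5 of 17 and secretory pathway genes in 34 of 50, both lists that fell, while laminins and basement membrane genes held it in 3 of 26. Lists in which more genes rose held it as well, ribosome biogenesis in 23 of 43 promoters, splicing factors in 27 of 62 and HOX genes in 13 of 18. ACGTG also forms part of the CACGTG box of other factors and overlaps it. Distant binding sites are not covered by these windows.

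Base composition and level moved with the share of large changes in both directions. Over 5 bins of equal size, genes at least 2-fold lower made up 13.1% of the bin with the lowest GC content and 23.5% of the bin with the highest, and the median log2 fold changes of these bins were 0.12 and -0.06. At least 2-fold higher genes made up 11.9% and 15.0% of the same bins. By level, 30.6% of the bin with the fewest reads, 11.6% of the bin next to the highest and 17.9% of the highest bin were at least 2-fold lower. At least 2-fold higher were 17.8%, 10.6% and 9.81% of these bins. Length showed little, with 16.8% in the shortest and 20.1% in the longest bin. Their part in the results above was not tested beyond the fits with the GC or the length trend removed.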

How the data were processed

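RNA of A498 cells was sequenced as stranded mRNA libraries, 3 for each of shControl, shARNT and shBMAL1. The authors deposited 1 table of estimated counts per gene, in which a value of 0.05 stands for no reads and some values are not whole. The study's methods name GRCh37, SeqMan NGen and ArrayStar, while the submitters' processing notes name hg38, STAR and DESeq2, so the build behind the counts and the treatment of strand and of reads with several alignments are uncertain. Coordinates of genes in GRCh37 come from GENCODE 44 lifted to that build, and sequences come from RefSeq on GRCh38.p14, matched by symbol. No column of values was left unused (0 columns).

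Here 0.05 was set to 0, values were rounded, and rows with the same name were summed, which gave 27673 genes. The 28 rows with a date in place of a name were kept apart. Genes passing filterByExpr (15551) were fitted with the edgeR 4.0.16 quasi-likelihood test in R 4.3.3 on all 9 libraries with group as the only term, TMM scaling and Benjamini-Hochberg adjustment, and called at an adjusted p under 0.1. Standard errors were derived from the F statistic, values are CPM, and error terms after ± are SE for log2 fold changes. In simulated data for 15551 genes of the shARNT against shControl comparison, 200 genes were changed, as many up as down. Of these, 100% of 2-fold and 86% of 1.41-fold changes were called, and 24 calls were false (11.4% of calls). In the data 81.8% of genes were called, so the simulation does not test the scaling or the calls under so broad a change.

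Named genes were ARNT, the 12 largest falls and 12 largest rises, the 8 largest losses and 8 largest gains in share of counts, and up to 2 falls and 2 rises of each list in each case called, with groups that did not overlap and a mean log2 CPM of 2 or more. The gene lists and the comparison were chosen with earlier results of these data known, and exceptions to the naming rule are stated. A few genes that the rule names are not reported here. PECAM1, PTPRC, COL1A2, PDGFRA, CYP1A1 and MFAP5 are named for the cell type check, for want of reads or for a caption. The alternatives were DESeq2 1.42.0 size factors and test, library size alone, no filter, 6 libraries alone, an adjusted p of 0.05, a minimum fold of 1.5, halved counts, a replicate block, GC and length trends removed, and each library left out.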

Additional observations from a re-analysis of the deposited data

How the results depend on the processing

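The counts of genes lower and higher in shARNT stayed within 1.5 times their values under every alternative except a test against a minimum fold of 1.5, which by its construction called 3849 genes lower and 3116 higher. Leaving out 1 library at a time gave 6278 to 6372 genes lower and 6152 to 6217 higher, and 3016 to 3109 and 1943 to 2028 at 2-fold. With library size alone 5111 genes were lower and 7828 higher, and the medians of 11 lists near 0 (TCA cycle, antisense transcripts, mitosis, lysosome, MAPK, TGF-β, Notch, WNT, interferon-stimulated genes, actin and tubulins) changed sign. The ATF4, aryl hydrocarbon receptor and keratin medians changed sign under other settings. The length correction was chosen after seeing the data and gave 6283 genes lower and 6476 higher. Replicate numbers did not pair the libraries, since same-numbered shControl and shARNT libraries correlated at -0.22, -0.04 and -0.0032 in their deviations, and the fit with the replicate number as a block called 6395 genes lower and 6288 higher. ARNT remained called in all 16 alternatives. RNR2 was the 1 gene named that turned, to a log2 fold change of 0.16 with library size alone. At these depths genes with few reads had the widest spread, and halved counts gave 6185 genes lower and 6119 higher.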
